A study of Homo sapiens with 4 samples.

Results

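Peaks of CHAF1A CUT&Tag that lie inside very long genes were taken from the lists of RBE, an established cell line from a human cancer of the bile ducts within the liver. A gene counted as very long when its RefSeq (GRCh38) extent exceeded 500 kb, it was protein-coding and it lay on chromosomes 1 to 22; 303 of 19126 such protein-coding genes met this. A peak counted as interior when it lay inside the gene and more than 1 kb from both of its boundaries. Of all peaks on these chromosomes, 2598 of 74282 (3.50%) in the control list and 3349 of 94415 (3.55%) in the siRNA list were interior to a very long gene. The 2801 protein-coding genes of 50 to 100 kb served for comparison and held 6427 control and 8457 siRNA interior peaks.

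The control siRNA group (2 samples) and the CHAF1A siRNA group (2 samples) were RBE cells harvested 48 hours after transfection with Lipofectamine and share this 1 line. Each group is represented by 1 peak list that does not keep its samples apart. The list names, NC and si, are only partly those of the sample titles; NC is taken as control siRNA and si as CHAF1A siRNA. No replicate check exists for any difference, and no p-value between the groups is given. Intervals are 95% exact Poisson intervals for counts per length and 95% exact binomial (Clopper-Pearson) intervals for shares, and they cover counting error only. The background at peaks, recovered from the deposited fold and p, was most often 6.34 reads in the control list and 8.49 in the siRNA list. Read totals, an untargeted control library and the level of CHAF1A were not analysed here. A peak therefore stands for signal at a site, and the knockdown was not checked. Fold enrichment and −log10 q were set by the authors' peak caller within 1 list, and depth moves them, so they are set side by side between lists without reading a change. Whether a peak lay in an exon or an intron was not analysed here either.

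CHAF1A is the largest subunit of chromatin assembly factor 1, the chaperone that places new histones on freshly replicated DNA. Very long human genes consist mostly of intron, and many of them encode adhesion molecules, receptors and synaptic proteins of neurons. Several replicate late and coincide with common fragile sites, regions that break when replication is slowed. In CUT&Tag an antibody tethers the transposase Tn5 to its target, and Tn5 also enters open chromatin such as active promoters.

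Very long genes often have further annotated transcription starts far inside their extent, and some strong interior peaks lay at them. The 250 bases before 6 starts inside very long genes are printed 5′ to 3′ on the strand of the gene, with each CpG dinucleotide in capitals. The sequences are RefSeq's (GRCh38.p14). The first pair are the internal starts with 10 or more CpG that had the strongest control peak and a peak in both lists, each with no overlapping window of another start. CAST encodes calpastatin, the inhibitor of calpain proteases, and NRXN3 a neurexin, a presynaptic adhesion receptor whose short form begins inside the gene.
CAST, chr5:96661787-96662036, plus strand: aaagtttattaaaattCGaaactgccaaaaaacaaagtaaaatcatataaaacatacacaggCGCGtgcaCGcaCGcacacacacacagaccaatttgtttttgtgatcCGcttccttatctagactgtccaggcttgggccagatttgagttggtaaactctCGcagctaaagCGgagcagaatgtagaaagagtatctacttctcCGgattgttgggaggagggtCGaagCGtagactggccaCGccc
NRXN3, chr14:79279130-79279379, plus strand: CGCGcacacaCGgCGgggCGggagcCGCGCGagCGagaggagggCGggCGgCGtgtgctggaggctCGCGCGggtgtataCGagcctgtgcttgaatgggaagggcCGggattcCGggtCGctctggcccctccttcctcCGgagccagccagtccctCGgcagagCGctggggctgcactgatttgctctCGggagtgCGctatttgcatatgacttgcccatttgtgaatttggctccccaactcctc

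The CAST window held 12 CpG and the control peak over it (chr5:96661914-96663289) had a fold enrichment of 7.17, against 5.35 in the siRNA list. The control peak covered only part of the printed bases. The peaks of both lists also covered further CAST start windows that begin at chr5:96662126 (19 CpG) and chr5:96662775 (17 CpG). They therefore cannot be assigned to the printed window alone. The NRXN3 window held 24 CpG, and its peaks had fold enrichments of 9.28 (control, chr14:79278947-79279699) and 7.31 (siRNA). The next pair are the starts with fewer than 10 CpG chosen the same way. PALM2AKAP2 encodes paralemmin and anchoring-protein forms, and PDE4D a phosphodiesterase that degrades cyclic AMP.
PALM2AKAP2, chr9:110125251-110125500, plus strand: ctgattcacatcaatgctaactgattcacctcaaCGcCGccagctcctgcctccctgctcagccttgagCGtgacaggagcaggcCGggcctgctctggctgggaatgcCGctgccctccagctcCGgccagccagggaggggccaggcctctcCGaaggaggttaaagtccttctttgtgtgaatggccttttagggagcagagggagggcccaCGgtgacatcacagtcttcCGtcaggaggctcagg
PDE4D, chr5:59587626-59587875, minus strand: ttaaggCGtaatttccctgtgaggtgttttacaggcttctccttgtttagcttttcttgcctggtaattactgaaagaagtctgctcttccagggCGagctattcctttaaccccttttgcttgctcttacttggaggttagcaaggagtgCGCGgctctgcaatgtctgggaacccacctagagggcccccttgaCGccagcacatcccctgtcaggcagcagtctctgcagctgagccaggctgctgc

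PALM2AKAP2 had 9 CpG in this window and fold enrichments of 7.10 (control) and 6.15 (siRNA). PDE4D had 5 CpG, with fold enrichments of 8.16 and 6.33. Its peaks (control chr5:59587444-59587735, siRNA chr5:59587487-59587720) covered only part of the printed bases. Strong interior peaks were therefore present at starts rich and poor in CpG. The last pair set the start of ARG2, an arginase gene that lies inside the extent of GPHN, beside the internal start of ANKS1B, which held the most CpG of all internal starts without a peak in either list.
ARG2, chr14:67619670-67619919, plus strand: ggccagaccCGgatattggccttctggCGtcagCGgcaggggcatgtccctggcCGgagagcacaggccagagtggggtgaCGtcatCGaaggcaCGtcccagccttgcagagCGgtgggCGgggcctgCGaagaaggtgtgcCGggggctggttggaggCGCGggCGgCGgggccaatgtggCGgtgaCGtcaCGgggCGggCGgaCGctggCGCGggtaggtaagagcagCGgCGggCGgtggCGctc
ANKS1B, chr12:98894775-98895024, minus strand: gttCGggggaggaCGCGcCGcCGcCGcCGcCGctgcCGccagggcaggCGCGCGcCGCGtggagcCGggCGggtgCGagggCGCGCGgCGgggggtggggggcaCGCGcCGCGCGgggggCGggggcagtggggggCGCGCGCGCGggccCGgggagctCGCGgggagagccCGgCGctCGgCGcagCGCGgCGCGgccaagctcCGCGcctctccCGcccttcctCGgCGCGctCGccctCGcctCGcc

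ARG2 had 27 CpG and fold enrichments of 8.97 (control) and 6.08 (siRNA). ANKS1B had 52 CpG and no peak, so the start with the most CpG here was without one. All 6 windows were chosen with the peak values known.

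RefSeq start windows were matched for 251 of the 303 very long genes, and 162 of these genes had at least 1 internal start. Of the 371 internal start windows, 14.3% (10.9 to 18.3) had a control peak and 15.1% (11.6 to 19.1) a siRNA peak, with 40 covered in both lists and 302 in neither. At the 217 windows that lay at or near a boundary of the same genes, 33.2% (27.0 to 39.9) had a control peak. Internal starts with 10 or more CpG had a control peak in 25.2% (17.9 to 33.7) of 127 windows, and those with fewer in 8.61% (5.41 to 12.9) of 244. In genes of 50 to 100 kb the internal starts with 10 or more CpG had one in 58.6% (53.9 to 63.2) of 452 windows. CpG-rich internal starts of very long genes thus carried a peak less often in this count. The 127 windows came from 82 genes and the 452 from 338. The intervals treat windows as independent and can be too narrow where starts of 1 gene lie close together. Over all start windows with 10 or more CpG, genome-wide, the share was 63.4%.

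Each 250-base window was searched on both strands for the box GGGCGG bound by Sp and KLF factors, the box CCAAT bound by NF-Y, the box TATAAA of TBP and the site TGACTCA of AP-1; no motif contains another. Over all 33725 start windows they were found in 42.7%, 31.8%, 10.7% and 4.17%, in that order. Among the 40 internal starts with a peak in both lists TGACTCA was found in 17.5%, and among the 302 with none in 3.64%. GGGCGG was found in 57.5% and 19.2%, CCAAT in 37.5% and 29.5%, and TATAAA in 7.50% and 14.9%. The windows also differed in CpG, with medians of 17 and 4. Neighbouring windows can share 1 peak, and a match is not a bound site.

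Interior peaks were sparse in very long genes. Their density was 10.4 peaks per Mb (9.99 to 10.8) over 250 Mb in the control list and 13.4 (12.9 to 13.9) in the siRNA list. In genes of 50 to 100 kb it was 33.8 (33.0 to 34.7) and 44.5 (43.6 to 45.5) over 190 Mb. The shorter genes were thus 3.26 times as dense (3.11 to 3.41) by control peaks and 3.32 times (3.19 to 3.46) by siRNA peaks. For genes over 1 Mb, 66 in number, the factor was 5.26 (4.83 to 5.74) by control peaks and 5.44 (5.05 to 5.87) by siRNA peaks.

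Density was lower at each step up in gene length in both lists. In the control list it went from 59.5 peaks per Mb in genes of 10 to 20 kb to 28.2 at 100 to 200 kb, 19.0 at 200 to 500 kb, 12.6 at 500 to 1000 kb and 6.43 above. The siRNA list went from 80.7 to 37.5, 24.6, 16.4 and 8.18 over the same classes. Among the very long genes themselves the rank correlation of length with control density was -0.211 (Spearman, across 303 genes of 1 list, given as a description).

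**Figure D1:**
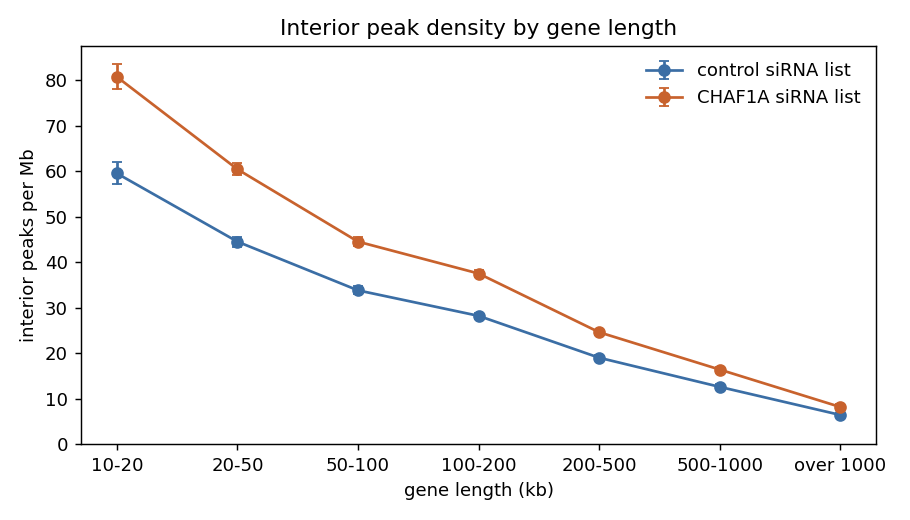
Interior peaks per Mb (vertical axis) by class of gene length in kb (horizontal axis) for both lists, with 95% exact Poisson intervals as bars. Both lines step down throughout, from 59.5 to 6.43 control peaks per Mb and from 80.7 to 8.18 siRNA peaks per Mb.

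At the same distance from a boundary very long genes were still the sparser class. At 1 to 10 kb from the nearer boundary very long genes held 17.1 control peaks per Mb (13.8 to 20.9), and genes of 50 to 100 kb held 35.4 (33.7 to 37.0). At 25 to 50 kb the values were 14.1 (12.2 to 16.1) and 31.1 (29.7 to 32.6). Deeper in the very long genes the density went down to 10.8 at 100 to 250 kb and 7.66 (7.13 to 8.23) past 250 kb. The siRNA list had 22.9 peaks per Mb at 1 to 10 kb and 9.70 past 250 kb. The 250 kb on either side of the very long genes, outside all very long genes, held 19.6 control peaks per Mb (18.9 to 20.4) and 25.5 siRNA peaks per Mb (24.7 to 26.3), so the interiors were sparser than their own surroundings.

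**Figure D2:**
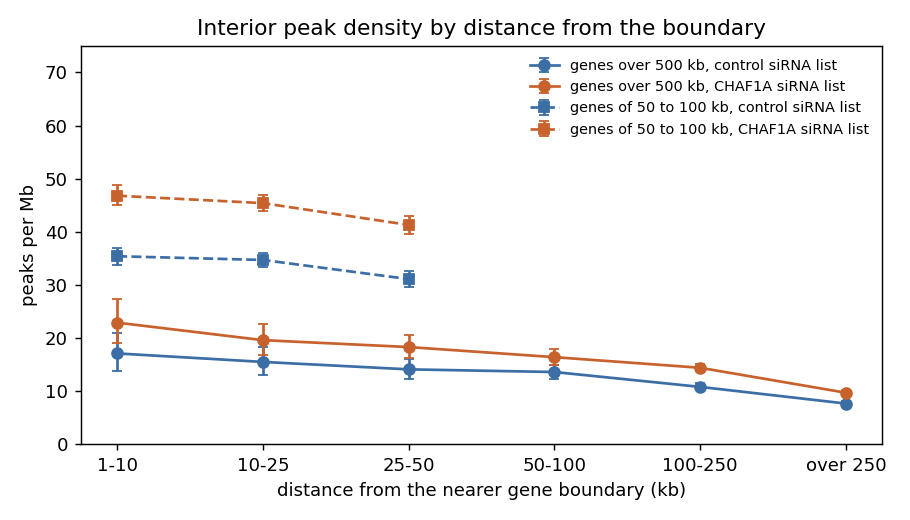
Peaks per Mb (vertical axis) by distance from the nearer gene boundary in kb (horizontal axis), for very long genes (circles, solid) and genes of 50 to 100 kb (squares, dashed) in each list, with 95% exact Poisson intervals. At every distance up to 50 kb the very long genes lie below the shorter ones, and they fall to 7.66 (control) and 9.70 (siRNA) past 250 kb.

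The 251 very long genes with a known strand were cut into 10 equal parts from the 5′ end, and part 10 held the largest share of interior peaks. In the control list 14.3% (12.8 to 15.9) of 2081 peaks lay in part 10, 12.3% in part 9 and 10.5% (9.24 to 11.9) in part 1. The lowest share was 8.27%, in part 4. The siRNA list had 12.4% (11.2 to 13.7) in part 10 and 11.5% (10.3 to 12.8) in part 1. In genes of 50 to 100 kb part 10 held 9.88% (control) and 10.3% (siRNA), and part 1 held 7.92% and 7.71%. The 1 kb margin takes a larger piece of the end parts in these shorter genes than in very long genes. It lowers their shares there, so the end parts of the gene classes are not directly comparable.

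Single genes differed widely. The median very long gene had 6.90 control peaks per Mb (range 0 to 92.3) and 9.12 siRNA peaks per Mb (range 0 to 113). The 30 densest genes held 34.4% of control peaks in 7.91% of the length. In each list 28 genes had no interior peak, and 13 had none in either. The ranks of the genes were close between the lists, with a Spearman correlation of 0.909 over 303 genes, which share their sequence and cell line.

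RBFOX3 (chr17:79089345-79665571), the gene of the neuronal splicing factor NeuN, was the densest, with 53 control peaks (92.3 per Mb, 69.1 to 121) and 65 siRNA peaks (113 per Mb). PTPRN2 (chr7:157539056-158587823), which encodes a phosphatase-like protein of secretory vesicles, had 74 (70.7 per Mb) and 81 (77.4). CDH4 (chr20:61252261-61940617), the gene of R-cadherin, had 47 (68.5 per Mb) and 59 (86.0). These 3 genes stood well above the pooled density of 10.4 and 13.4 peaks per Mb. DENND1A, an exchange factor for Rab GTPases in endocytosis, had 65.6 control and 69.3 siRNA peaks per Mb, and ADARB2, an RNA-editing enzyme homologue, 59.1 and 96.7. PRKCA, a protein kinase C, had 57.3 and 71.1, and SORCS2, a sorting receptor for neurotrophins, 56.5 and 93.0. ANXA8, an annexin, had 53.7 and 67.1, but the extent given for it holds 4 whole protein-coding genes.

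The 10 longest genes were mostly sparse. RBFOX1 (chr16:5239721-7713340), a splicing factor gene of 2474 kb and the longest, had 7 control peaks (2.83 per Mb, 1.14 to 5.84) and 18 siRNA peaks (7.28 per Mb, 4.32 to 11.5). CNTNAP2, a neurexin-family adhesion gene of 2304 kb, had 18 (7.82 per Mb) and 21 (9.12 per Mb), and DLG2, a synaptic scaffold gene, 13 (5.99) and 17 (7.83). PTPRD, a receptor phosphatase gene of 2299 kb, had 1 control peak and no siRNA peak, which allows up to 1.61 per Mb (upper 95% exact Poisson bound). CSMD1, a complement-control gene, had 1 peak in each list in 2060 kb. LRP1B, a lipoprotein receptor gene, had 7 and 4, and PCDH15, a protocadherin gene of hair cells, 4 and 9. EYS, needed in photoreceptors, was the densest of the 10 with 20 (10.1 per Mb) and 27 (13.6 per Mb). MACROD2, an ADP-ribosyl hydrolase gene, had 10 and 9, and CTNNA3, an alpha-catenin gene, 10 and 22.

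Of the genes with no interior peak in either list, SGCZ (a sarcoglycan, 1154 kb) and SOX5 (a transcription factor, 1033 kb) were the longest named. The counts allow up to 3.20 peaks per Mb in SGCZ and 3.58 in SOX5. The others named were NEGR1, DPYD, MDGA2, STPG2, GRIK2 and MAPK10, which encode an adhesion molecule, the enzyme that degrades pyrimidines, another adhesion molecule, a sperm-tail protein, a kainate receptor and a stress-activated kinase. DPYD and MAPK10 had a peak at a boundary in both lists, and MDGA2 in neither, so an empty interior was found with and without a peak at the ends.

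**Figure D3:**
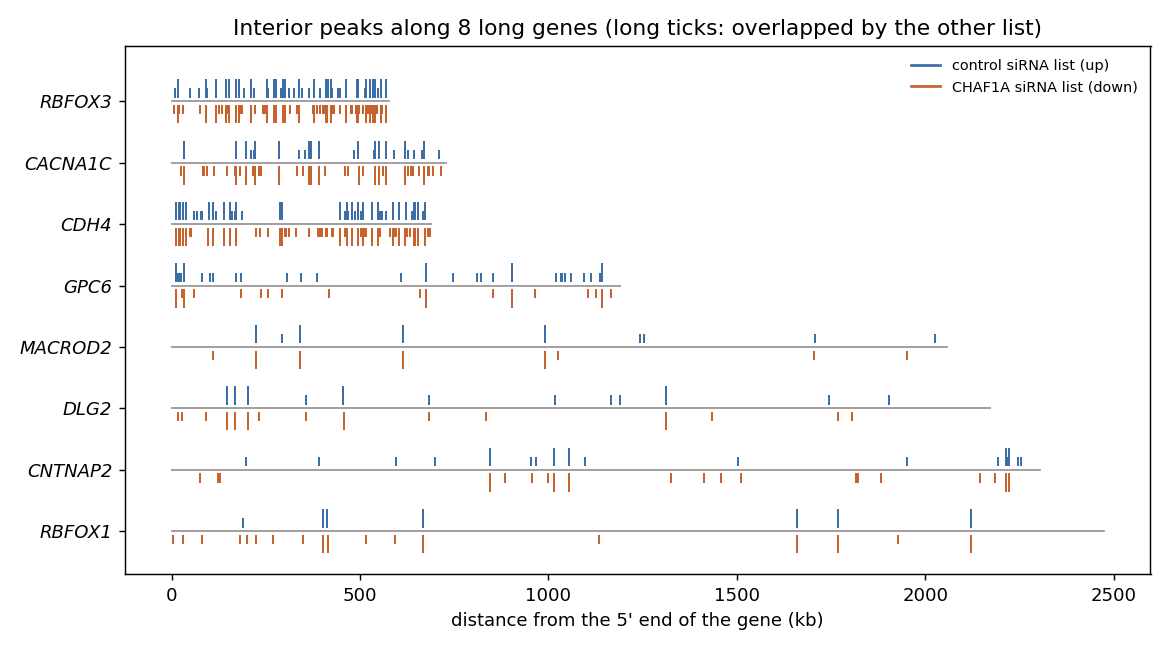
Interior peaks along 8 very long genes by distance from the 5′ end in kb (horizontal axis). The control siRNA list is above each line and the CHAF1A siRNA list below, with long ticks for peaks overlapped by the other list. The genes were picked at densities from 2.83 (RBFOX1) to 92.3 (RBFOX3) control peaks per Mb, so empty genes are not shown. RBFOX3 has peaks along most of its length, CDH4 has a gap of 152 kb between control peaks, and RBFOX1 has 7 control peaks in 2474 kb.

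Grouped by function, the genes of common fragile sites had the lowest pooled density of the 5 lists. Their 24 members held 166 control peaks (5.09 per Mb, 4.35 to 5.93) and 204 siRNA peaks (6.26 per Mb, 5.43 to 7.18), with 2 members empty in each list. The median member had 4.61 control peaks per Mb, between the medians of 4.26 for adhesion genes and 4.78 for transcription and RNA-binding factor genes. More siRNA than control peaks were counted in 13 members and fewer in 7. In the other lists, in the order given below, the counts were 22 and 10, 17 and 6, 10 and 3, and 16 and 9. Over all very long genes the siRNA list held 1.29 times as many peaks, and 0.916 times with equal numbers of peaks. The counts of members were not made over all very long genes or with equal numbers of peaks. No lean particular to these lists is therefore read from them. The median length of the fragile site genes was 1408 kb, the longest of the lists, and density was lower in longer genes. FHIT (chr3:59747277-61251452), a tumour suppressor gene at a well-known fragile site, had 9 control peaks (5.99 per Mb) and 2 siRNA peaks (1.33 per Mb), a ratio whose interval of 0.0234 to 1.07 includes 1. WWOX, an oxidoreductase gene, had 5 and 2. NBEA, PDE4D and RORA were dense for this list, at 16.5, 15.5 and 12.2 control peaks per Mb. CCSER1 had 0 control peaks and 1 siRNA peak in 1478 kb. A boundary peak in the control list was present at 14 of the 24 genes, against 38.9% of all very long genes.

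The 40 adhesion and axon guidance genes had 8.86 control peaks per Mb (8.01 to 9.77) and 10.2 siRNA peaks per Mb (9.28 to 11.2). Besides PTPRN2 and CDH4, ASTN2, a gene of neuronal migration, had 37.4 and 53.5 peaks per Mb, and PTPRM, a homophilic receptor phosphatase, 26.3 and 17.9. NEGR1 and NCAM2 had none. The median member had 4.26 control peaks per Mb, below the pooled value.

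Genes of ion channels, receptors and synapses (32 of 35 listed are very long) had 8.61 (7.59 to 9.73) control and 10.5 (9.42 to 11.8) siRNA peaks per Mb. CACNA1C (chr12:1970780-2697950), a calcium channel subunit, led with 37.2 and 55.2 per Mb, followed by the potassium channel KCNMA1 with 31.3 and 50.9 and the glutamate receptor GRID1 with 26.1 and 37.9. Genes of transcription and RNA-binding factors (15 of 30 listed) had 9.12 (7.55 to 10.9) and 12.4 (10.5 to 14.4) per Mb. RBFOX3 carried much of this: without it the other 14 genes had 5.26 (4.06 to 6.70) and 7.68 (6.22 to 9.39), from 1.37 in RBMS3 to 12.2 in RORA in the control list. Polarity, trafficking and signalling enzyme genes (28 of 40 listed) were the densest list, at 13.9 (12.4 to 15.5) and 16.3 (14.7 to 18.0). In it NAV2, a cytoskeletal guidance factor, had 49.1 and 56.8, PRKCE, a protein kinase C, 35.5 and 43.0, and AGAP1, an Arf-GTPase regulator, 31.5 and 56.6. PDE4B had 0 control peaks and 1 siRNA peak, and PLCB1, a phospholipase, 1 and 0. For all very long genes together the pooled values were 10.4 and 13.4 and the medians per gene 6.90 and 9.12.

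Peaks at the ends of very long genes were also less common. A peak within 1 kb of either boundary was present at 118 of 303 genes (38.9%) in the control list and 137 (45.2%) in the siRNA list. For genes of 50 to 100 kb these shares were 67.4% and 69.1%. The 152 very long genes with a boundary peak in at least 1 list had 11.7 control and 15.5 siRNA interior peaks per Mb, and the 151 without had 9.11 and 11.3. The densest gene, RBFOX3, had no boundary peak in either list.

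Few interior peaks lay on other annotated genes' ends in either gene class. In the control list 37 (1.42%) in very long genes lay within 1 kb of a boundary of another protein-coding gene, and 95 (3.66%) of a lncRNA gene. A share of 93.2% touched neither of these nor any other annotated end. In genes of 50 to 100 kb these shares were 2.41%, 3.59% and 91.8%. In very long genes, control peaks at protein-coding ends were shared in 81.1% (64.8 to 92.0), and those at no other gene in 47.4% (45.4 to 49.4). In the shorter genes the values were 75.5% and 56.3%. Among the 2070 control peaks of the 251 genes with a matched start, 44 touched an internal start of the gene and 31 a start of another gene. The first were shared in 77.3% (62.2 to 88.5), had a median −log10 q of 18.3 and were 512 bp wide at the median. The 1995 peaks at no start window were shared in 46.3% (44.1 to 48.5), with a median −log10 q of 8.49 and a median width of 290 bp.

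Sharing means that a peak is overlapped by at least 1 bp of a peak of the other list. Of the control peaks in very long genes 48.0% (46.0 to 49.9) were shared, against 57.3% (56.1 to 58.5) in genes of 50 to 100 kb and 61.8% over all control peaks of chromosomes 1 to 22. Of the siRNA peaks 36.9% (35.3 to 38.6), 42.9% (41.8 to 44.0) and 47.8% were shared. Sharing in very long genes was thus below that in shorter genes and below that of all peaks in each list. When each list was limited to peaks with −log10 q of at least 10, 57.7% of siRNA peaks were shared in very long genes and 56.2% in the shorter genes, beside 64.9% of all such siRNA peaks, so sharing below that of shorter genes was not seen there. It was seen in the control list, with 48.7% against 61.9%, beside 68.3% of all such control peaks.

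At matched strength the difference in the control list was of the same size. The median −log10 q was 8.49 in very long and 8.41 in shorter genes. Genes of 50 to 100 kb reweighted to the strengths of the very long genes had 57.0% shared control peaks, and 39.0% shared siRNA peaks, which is nearer to the 36.9% of very long genes. Within classes of −log10 q the control shares in very long genes were 24.4% below 5, 37.4% from 5 to 10, 58.2% from 10 to 20, 77.0% from 20 to 50 and 95.4% above. In shorter genes they were 27.9%, 48.3%, 68.6%, 85.4% and 97.9%. In the siRNA list very long genes had 12.1% below 5 and 27.2% (25.1 to 29.3) from 5 to 10, against 15.1% and 30.8% (29.4 to 32.2). The class of 10 to 20 had 65.8% and 64.5%, and the class of 20 to 50 had 96.9% and 93.1%, with overlapping intervals in both classes. The strongest peaks were nearly all shared in both gene classes.

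**Figure D4:**
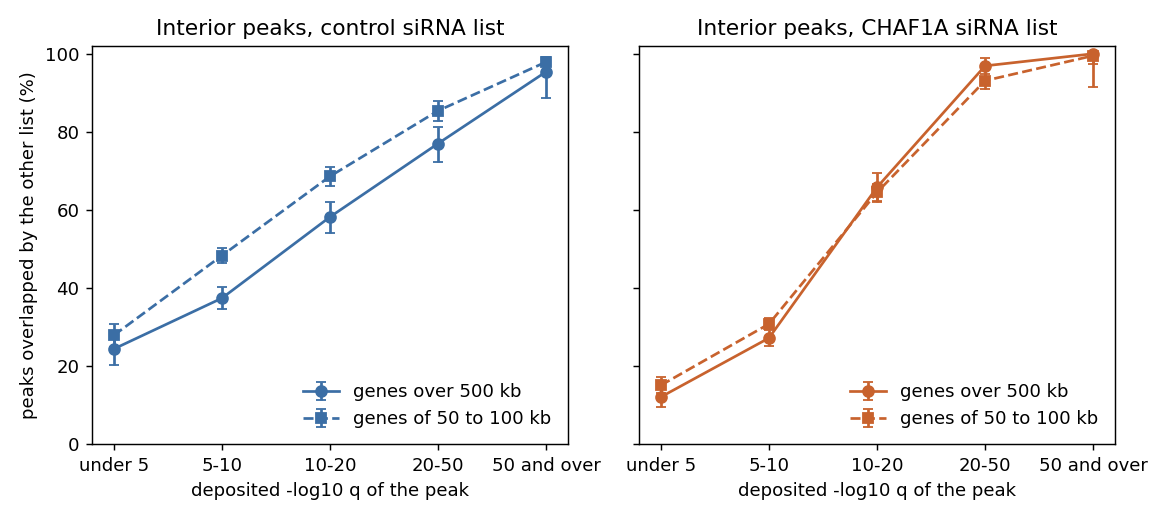
Percent of interior peaks overlapped by the other list (vertical axis) by class of deposited −log10 q (horizontal axis), for very long genes (circles, solid) and genes of 50 to 100 kb (squares, dashed), with 95% exact binomial intervals. In the control list very long genes lie lower in each class, for example 37.4% against 48.3% at 5 to 10, with overlapping intervals below 5 and from 50 up. In the siRNA list they lie lower below 10 and higher from 10 up, for example 65.8% against 64.5% at 10 to 20. There the intervals overlap in each class except 5 to 10.

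The local background differed between the gene classes. Its median at interior peaks was 6.89 reads (control) and 8.51 reads (siRNA) in very long genes, against 10.3 and 13.7 in genes of 50 to 100 kb. Of the peaks in very long genes with a recovered background, 45.4% (control) and 54.7% (siRNA) were within 5% of the most frequent background of the list, against 15.1% and 18.1%. The median fold enrichment was 3.88 (control) and 3.27 (siRNA), against 3.47 and 3.04. Its part in density and sharing was not tested.

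The strongest shared interior peak was in CACNA1C (chr12:2520076-2520876), 550 kb from the 5′ end, with fold enrichments of 23.8 (control) and 24.8 (siRNA) and −log10 q of 953 and 2432. A second CACNA1C peak (chr12:2255794-2256093) had fold enrichments of 26.2 and 26.4. The MACROD2 peak at chr20:14609938-14610147 had fold enrichments of 37.2 (control) and 13.3 (siRNA) and was 210 bp wide as a control peak. The extents given for RANBP2 and GPHN hold 5 and 12 whole other protein-coding genes. The strong peaks in RANBP2 (chr2:109613663-109614608) and GPHN (chr14:67240634-67241967) lay at the boundaries of SEPTIN10 and SOWAHC and of PALS1, genes inside their extents. A further RANBP2 peak (chr2:109199333-109199897) lay in SH3RF3. ERC1, a scaffold gene of vesicle fusion, had a shared peak at chr12:1085055-1085672 with fold enrichments of 22.1 and 15.6. STK3, a Hippo pathway kinase gene, completed the 8 strongest, with 12.7 and 9.42.

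Peaks of 1 list alone were weaker than the strongest shared ones. The strongest control peak without a siRNA peak lay in KIAA1217 (chr10:24483621-24484049, −log10 q 103). Other strong ones were in CDH4 (fold enrichment 10.5), NRG1 (7.03), PTPRD (10.3, over the RN7SL5P pseudogene) and LRRC4C (9.02). The strongest siRNA peaks without a control peak were in VPS13B (7.70), SLIT3 (5.87), SCHIP1 (5.80), RABGAP1L (5.69), PPP2R2B (5.52) and DLGAP2 (5.59). The nearest peak of the other list was 17.6 kb away for KIAA1217 and 1562 kb away for PTPRD, and 0.561 kb away for PPP2R2B, where the lists had neighbouring peaks.

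The siRNA list held 1.29 times (1.22 to 1.36) as many interior peaks in very long genes as the control list, 1.32 times (1.27 to 1.36) in genes of 50 to 100 kb and 1.27 times over all peaks. With equal numbers of the strongest peaks (74282 in each list) the factor became 0.916 (0.867 to 0.969) in very long genes and 1.00 (0.969 to 1.04) in the shorter genes. At −log10 q of at least 10 it was 0.838 (0.766 to 0.917) and 1.08 (1.03 to 1.14). The excess in very long genes therefore turned into a deficit when the lists were cut to the same number or to strong peaks, and the deficit was not seen in the shorter genes. The most frequent background was higher in the siRNA list, and its part in this was not tested.

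Per gene, 105 very long genes had at least 20 peaks over both lists. In 32 of them (30.5%) the siRNA list had more than 1.5 times the control count, beside 25.5% of all 687 protein-coding genes with as many peaks, and in 4 (3.81%) the control list had more than 1.5 times the siRNA count, beside 1.16% (the shares of all genes are the background). The median ratio was 1.30, against 1.28. With equal numbers of peaks 6 of 88 genes (6.82%) were higher, beside 5.05% of all 515 genes, and 13 (14.8%) were lower, beside 7.38%, so the direction depends on the number of peaks called. Called past 2 fold, 10 of 105 genes (9.52%) were higher, beside 5.97% of all genes, and 0 were lower, beside 0.146%.

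Among the genes with at least 20 peaks over both lists, the highest ratios of siRNA to control counts were in SBF2, a Rab exchange factor (17 against 6, ratio 2.83, 1.07 to 8.78), MTUS2, a microtubule-associated protein (28 against 10, 2.80, 1.32 to 6.46), and RBFOX1 (18 against 7, 2.57, 1.02 to 7.28). RABGAP1L had 22 against 9 (1.08 to 6.03), DOCK3 14 against 6 (0.842 to 7.41, which includes 1) and ASIC2, an acid-sensing channel, 37 against 16 (1.26 to 4.45). The lowest were in TENM2, a teneurin of synapse formation (12 against 21, ratio 0.571, 0.256 to 1.22), and GPC6, a glypican (18 against 31, 0.581, 0.306 to 1.07). SPOCK1, PDE10A, PTPRM and DLGAP1 had 10 against 16, 13 against 20, 15 against 22 and 13 against 17. The intervals of all 6 lowest ratios include 1. Set against the factor of 1.29 over very long genes, the intervals of TENM2 and GPC6 lie below it, and of the 6 highest MTUS2 alone lies above it. These genes were picked by their ratios out of 105, so intervals that miss the factor are a description and no test.

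**Figure D5:**
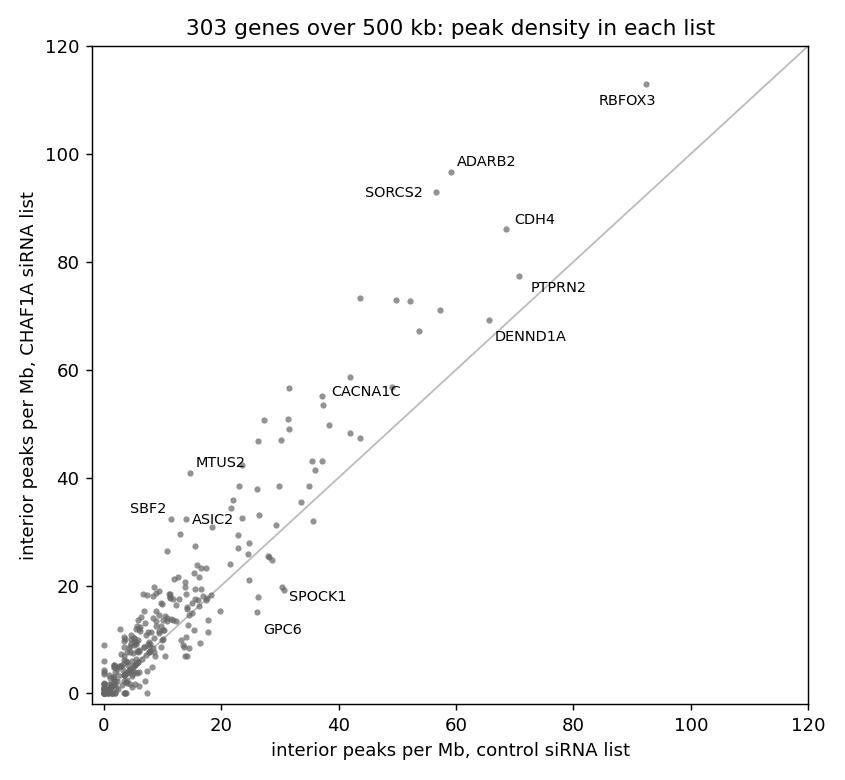
Interior peaks per Mb in the control siRNA list (horizontal axis) and in the CHAF1A siRNA list (vertical axis), 1 point per gene for 303 genes, with the line of equal density. Most dense genes such as ADARB2 lie above the line, and GPC6 and SPOCK1 lie below it.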

How the data were processed

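CUT&Tag peaks of CHAF1A in RBE cells (2 control and 2 CHAF1A siRNA samples) were used as 2 deposited lists, each of unstated pooling. The submitters' processing notes name MACS2 2.1.2, deepTools 3.4.3, fastp 0.20.1, Bowtie2 2.2.5 and the build hg38, with no roles. The deposited fold is a linear ratio of pileup over background within a list, p and q stand as −log10 values in the authors' lists, and the deposited score (10 times −log10 p within 1) was not used. The lowest deposited −log10 p was 5.00 in each list. Pileup and background were solved from fold and p where −log10 p was under 290.

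Gene extents came from a RefSeq table of GRCh38.p14, which is not split into exons; start windows and strand came from a RefSeq table of starts and matched 251 of 303 genes. Peaks shared by 2 overlapping genes were counted once in pooled values. They were counted once per gene in the parts along genes, the distances from a boundary and the densest genes. For the distances, length was summed over genes in the same way. Members, gene lists and rules were chosen with earlier results of these data known. Named genes are the 10 longest, the 8 with most and 8 with fewest control peaks per Mb, the 6 highest and lowest ratios, the densest 4 and sparsest 2 of each list, and the strongest peaks of each class; FHIT and WWOX, and the genes whose starts are shown, were named outside this rule after their values were seen. A few items taken by the rule are not reported here. Scripts were tested on simulated data. Software was Python 3.11.15 with scipy 1.17.1, numpy 2.4.6, matplotlib 3.10.9 and pandas 2.3.3. No test between conditions was made. Alternatives were −log10 q of at least 5 or 10, equal numbers of peaks, a 10 kb margin, leaving out peaks at other genes' boundaries, genes over 1 Mb, 50% reciprocal overlap and a 2 fold call. Leaving out very long genes that hold another whole protein-coding gene, and shorter genes that touch a very long one, was added after seeing the data, as were the gene lists without their densest gene.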

Additional observations from a re-analysis of the deposited data

How the results depend on the processing

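No paired analysis was possible because each group is 1 list that does not keep its samples apart, so leaving out a sample was not possible either. Very long genes were sparser than genes of 50 to 100 kb in both lists under every alternative run. The excess of siRNA peaks in very long genes reversed, to 0.838 at −log10 q of at least 10 and to 0.916 with equal numbers of peaks; the cause was not tested. Read depth was not used here, and the most frequent backgrounds of 6.34 and 8.49 reads differed, which limits comparison between the lists.

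At −log10 q of at least 5, density in very long genes was 8.85 (control) and 10.9 (siRNA) peaks per Mb, the factor to the shorter genes was 3.48 (siRNA), and sharing was 39.9% of siRNA peaks in very long genes and 59.3% (control) and 44.8% (siRNA) in the shorter genes. At 10 or more, density was 4.28 and 3.59, the siRNA factor 4.15, and sharing 57.7% (siRNA) in very long and 61.9% and 56.2% in shorter genes. With equal numbers of peaks, siRNA density was 9.52, its factor 3.56, and sharing 43.0% and 46.3% in very long and 52.0% and 50.8% in shorter genes. With peaks at other genes' boundaries left out, density was 9.68 and 12.7, and 41.8% of siRNA peaks in shorter genes were shared. In genes over 1 Mb density was 6.43 and 8.18 and the factors 5.26 and 5.44. With 50% reciprocal overlap, sharing was 32.8% and 25.4% in very long and 38.3% and 29.1% in shorter genes. Leaving out the 41 very long genes that hold another whole protein-coding gene, chosen after seeing the data, gave densities of 9.71 and 12.4 and factors of 3.48 and 3.59. Very long genes called higher in the siRNA list numbered 6 of 88 with equal numbers of peaks (5.05% over all genes) and 10 of 105 past 2 fold (5.97%), and those called lower 13 (7.38%) and 0 (0.146%). Without RBFOX3, also left out after seeing the data, the transcription and RNA-binding list had 5.26 and 7.68 peaks per Mb. A 10 kb margin, and leaving out the 27 shorter genes that touch a very long one (also chosen after seeing the data), kept each value within its counting interval. Leaving out each chromosome in turn gave 9.97 to 11.0 control and 12.8 to 14.3 siRNA peaks per Mb.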

Other observations

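Other genes that lie inside very long genes had 592 RefSeq start windows. Those of protein-coding genes had a control peak in 37.3% of 67 windows and a siRNA peak in 38.8%. Those of lncRNA genes had one in 5.52% (3.73 to 7.84) of 525 windows and in 5.71%. The median window held 10 CpG for protein-coding and 2 CpG for lncRNA genes. With 10 or more CpG, 36.0% (26.0 to 47.1) of 86 windows had a control peak, and with fewer 4.55% of 506.

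On each of the 21 chromosomes that carry very long genes, their pooled density was below that of genes of 50 to 100 kb in both lists. The chromosomes differed among themselves. Chromosome 17, with RBFOX3 and PRKCA among its 7 very long genes, had 32.2 control peaks per Mb, against 57.5 in the shorter genes. Chromosome 3, with 33 such genes, had 4.91 against 23.6, and chromosome 4 had 5.92 against 18.7. On chromosomes 18, 21 and 22 the siRNA list had fewer peaks than the control list in very long genes (44 against 46, 1 against 4 and 2 against 11), and more in the shorter genes (109 against 82, 87 against 66 and 154 against 107). Whether these differences exceed the spread between samples was not tested, with 1 list per group.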
